A study of Mus musculus with 20 samples.

Results

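Chemokine ligands were examined in inguinal white adipose tissue (iWAT) and brown adipose tissue (BAT) of mice in which α4 had been deleted from adipocytes. The set holds every gene of the deposited table whose symbol begins with Ccl or Cxcl and a digit, together with Cx3cl1, Xcl1, Pf4 and Ppbp. It came to 41 of the 25219 genes, after 17 rows that carry a bracketed copy number were left out. A count was present in at least 1 library for 40 of them, and Ccl26 was at 0 throughout.

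RNA from male mice had been sequenced in 20 libraries, 10 per tissue, of which 5 were Control and 5 Ai-α4KO. Ai-α4KO mice carry floxed alleles of α4 (gene symbol Igbp1, a regulatory subunit of PP2A-type phosphatases) and a tamoxifen-inducible Cre, Adiponectin-CreERT2, which the adiponectin promoter drives in adipocytes. Control mice carried the floxed alleles without that transgene, although the genotype label calls them WT. All mice were on a mixed (C57Bl/6) background and all were given tamoxifen at 100 mg/kg, injected 5 times within 6 days from 2 months of age, and tissue was taken 1 week after recombination. Neither the recombined cells nor any other cell type was isolated, so each value is that of a whole fat pad. The labels number the libraries but do not say that each is a separate mouse, nor whether iWAT and BAT came from the same mice, so p-values measure the spread between these samples, which may be technical.

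Total counts were 28060000 to 50384446 in the iWAT libraries, with 24023371 to 34274184 in those of BAT. Igbp1 stood between 57.5 and 76.6 CPM (the count relative to the library total, scaled by TMM) in Control iWAT and between 10.1 and 11.1 CPM in Ai-α4KO iWAT. In BAT it ran from 85.4 to 105 CPM in Control and from 13.7 to 25.2 CPM in Ai-α4KO, so the genotypes did not overlap in either tissue, and Igbp1 fell by 2.65 ± 0.094 in iWAT and 2.5 ± 0.17 in BAT (log2 fold change ± SE). Adipocyte markers were present in every group and lower in Ai-α4KO, and the summed brown adipocyte markers were far higher in Control BAT (10100 to 14000 CPM) than in Control iWAT (334 to 1900 CPM). Control iWAT libraries 1 and 4 stood apart from the other Control iWAT libraries in B cell, T cell and lymph node stroma markers, and results that rest on them are given with and without them.

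Chemokines are small secreted proteins that bind receptors on leukocytes and guide them along a gradient into tissue. CXC ligands of the receptor CXCR2 draw neutrophils, CC ligands of CCR2 and CCR1 draw monocytes, macrophages and T cells, and the homeostatic ligands position lymphocytes and progenitors in resting organs. In fat, Ccl2 is best known as a signal that recruits monocytes, and many inflammatory ligands are induced through NF-κB and interferon-responsive promoter elements and lie side by side in gene clusters.

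The DNA in front of 6 of these genes is shown. Cxcl1, Cxcl2, Cxcl3 and Cxcl10 are among the ligands that rose most in iWAT. In BAT the log2 fold change of Cxcl10, 4.61, was near the median of the members tested, 4.46. Cxcl9 is a neighbour of Cxcl10 whose level overlapped between the genotypes, and Ccl8 is the ligand whose rise differed most between tissues among those that passed that test. RefSeq promoter windows (GRCm38.p6) matched 29 of the 41 members. No entry was matched for Cxcl16, Ccl2, Ccl7, Ccl11, Ccl5, Ccl4, Ccl21c, Cxcl5, Cxcl11, Ccl26, Ccl24 and Cxcl17. Each line holds the 250 bases before the start site, read 5′ to 3′ on the strand of the gene. The capitals mark matches, on either strand, to 4 strings. GGGNNNTTCC and GGGNNNTCCC are forms of the NF-κB site and may overlap each other, GAAANNGAAA is a form of the interferon-stimulated response element, and TATAAA is the TATA box.
Cxcl1: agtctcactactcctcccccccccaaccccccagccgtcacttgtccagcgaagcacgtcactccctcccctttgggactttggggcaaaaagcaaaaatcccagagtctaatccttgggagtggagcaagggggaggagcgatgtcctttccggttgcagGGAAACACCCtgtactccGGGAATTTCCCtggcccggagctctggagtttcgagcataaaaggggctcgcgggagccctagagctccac
Cxcl2: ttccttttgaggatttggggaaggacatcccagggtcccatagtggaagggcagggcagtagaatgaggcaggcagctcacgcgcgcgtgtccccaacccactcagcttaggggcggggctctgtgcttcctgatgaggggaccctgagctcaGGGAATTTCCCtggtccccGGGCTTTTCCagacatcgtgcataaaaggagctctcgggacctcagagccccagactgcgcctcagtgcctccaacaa
Cxcl3: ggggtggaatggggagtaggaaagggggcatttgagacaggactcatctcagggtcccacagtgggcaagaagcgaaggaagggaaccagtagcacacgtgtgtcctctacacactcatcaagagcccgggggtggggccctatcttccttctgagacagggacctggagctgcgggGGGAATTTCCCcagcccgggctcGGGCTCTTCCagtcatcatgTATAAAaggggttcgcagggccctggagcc
Cxcl10: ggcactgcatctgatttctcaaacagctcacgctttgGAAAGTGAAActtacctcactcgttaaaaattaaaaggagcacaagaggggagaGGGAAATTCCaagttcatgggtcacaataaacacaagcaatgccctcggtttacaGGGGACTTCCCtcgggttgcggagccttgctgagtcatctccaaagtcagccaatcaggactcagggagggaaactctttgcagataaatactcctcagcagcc
Cxcl9: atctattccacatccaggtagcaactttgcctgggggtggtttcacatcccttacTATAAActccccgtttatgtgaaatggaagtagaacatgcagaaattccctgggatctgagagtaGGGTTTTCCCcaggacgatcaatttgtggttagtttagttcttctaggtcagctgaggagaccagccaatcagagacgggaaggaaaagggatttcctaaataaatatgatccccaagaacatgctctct
Ccl8: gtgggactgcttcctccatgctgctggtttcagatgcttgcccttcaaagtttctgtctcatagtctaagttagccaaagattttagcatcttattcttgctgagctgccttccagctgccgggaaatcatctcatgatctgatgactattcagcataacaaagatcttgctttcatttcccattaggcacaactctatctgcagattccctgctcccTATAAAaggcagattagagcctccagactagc
The windows lie at chr5:90890995-90891244 for Cxcl1, chr5:90903649-90903898 for Cxcl2 and chr5:90785851-90786100 for Cxcl3, all on the plus strand, at chr5:92348890-92349139 for Cxcl10 and chr5:92328080-92328329 for Cxcl9 on the minus strand, and at chr11:82114935-82115184 for Ccl8 on the plus strand. Cxcl1, Cxcl2, Cxcl3 and Cxcl10 each held at least 2 matches to the NF-κB forms that did not overlap, and these 4 were the only members with a window that did. Among all 32851 windows in the table, 8.80% held at least 1 such match and 0.46% held 2 or more that did not overlap. The match nearest to the start began at -71 and -70 in Cxcl1 (overlapping, 1 on each strand), at -78 in Cxcl2 and at -50 in Cxcl3, counted from the start site. Cxcl10 had matches that began at -159, -104 and -103 and a GAAANNGAAA match at -213, a string found in 2.98% of all windows. Cxcl9 had 1 NF-κB match, at -130, and Ccl8 had none of these strings but TATAAA, at -32, which 12.4% of all windows hold. Of the 17 members with a window that rose in either tissue, 6 held an NF-κB match, against 4 of the 12 members with a window that did not rise or were not tested. A match is a description of the letters, and its absence concerns only this window.

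The first question was how the whole family moved when α4 was lost. A call of higher or lower required an adjusted p under 0.01 together with a 2-fold difference or more (edgeR's quasi-likelihood test, adjusted over all genes tested in that tissue), and all adjusted p-values here are of that kind. The filter on low counts kept 32 members in iWAT and 31 in BAT. In iWAT 21 of the 32 rose and 0 fell by edgeR, where 11.3% of all genes tested rose and 10.7% fell. At an unadjusted p below 0.05, 2 members were lower in iWAT, Ccl19 and Ccl21a, and DESeq2 called both lower. In BAT 23 of the 31 rose and 0 fell, against 18.2% and 13.3% of all genes, and 0 were lower at an unadjusted p below 0.05 or by DESeq2, although Ccl27a was called lower without Ai-α4KO BAT library 5. The median log2 fold change of the members tested was 2.75 in iWAT, beside 0.01 for all genes, and 4.46 in BAT, beside -0.03.

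The tissues had 19 rises in common. Cxcl12 passed in iWAT only, as did Cxcl11, which was not tested in BAT, and Ccl24, Ccl22, Ccl5 and Cxcl14 in BAT only, although a call in a single tissue does not show that the tissues differed. A further 7 members were tested and passed in neither tissue (Ccl11, Cxcl9, Ccl25, Ccl27a, Cx3cl1, Ccl19 and Ccl21a), and 9 were tested in neither (Ccl20, Ccl21b, Ccl21c, Ccl27b, Ccl28, Ccl1, Ccl26, Cxcl15 and Cxcl17). Every Ai-α4KO library lay above every Control library for 23 of 32 members in iWAT and 23 of 31 in BAT, where 20.7% and 24.7% of all genes tested did so. In bulk tissue, more cells of a type and more RNA per cell cannot be told apart.

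**Figure D1:**
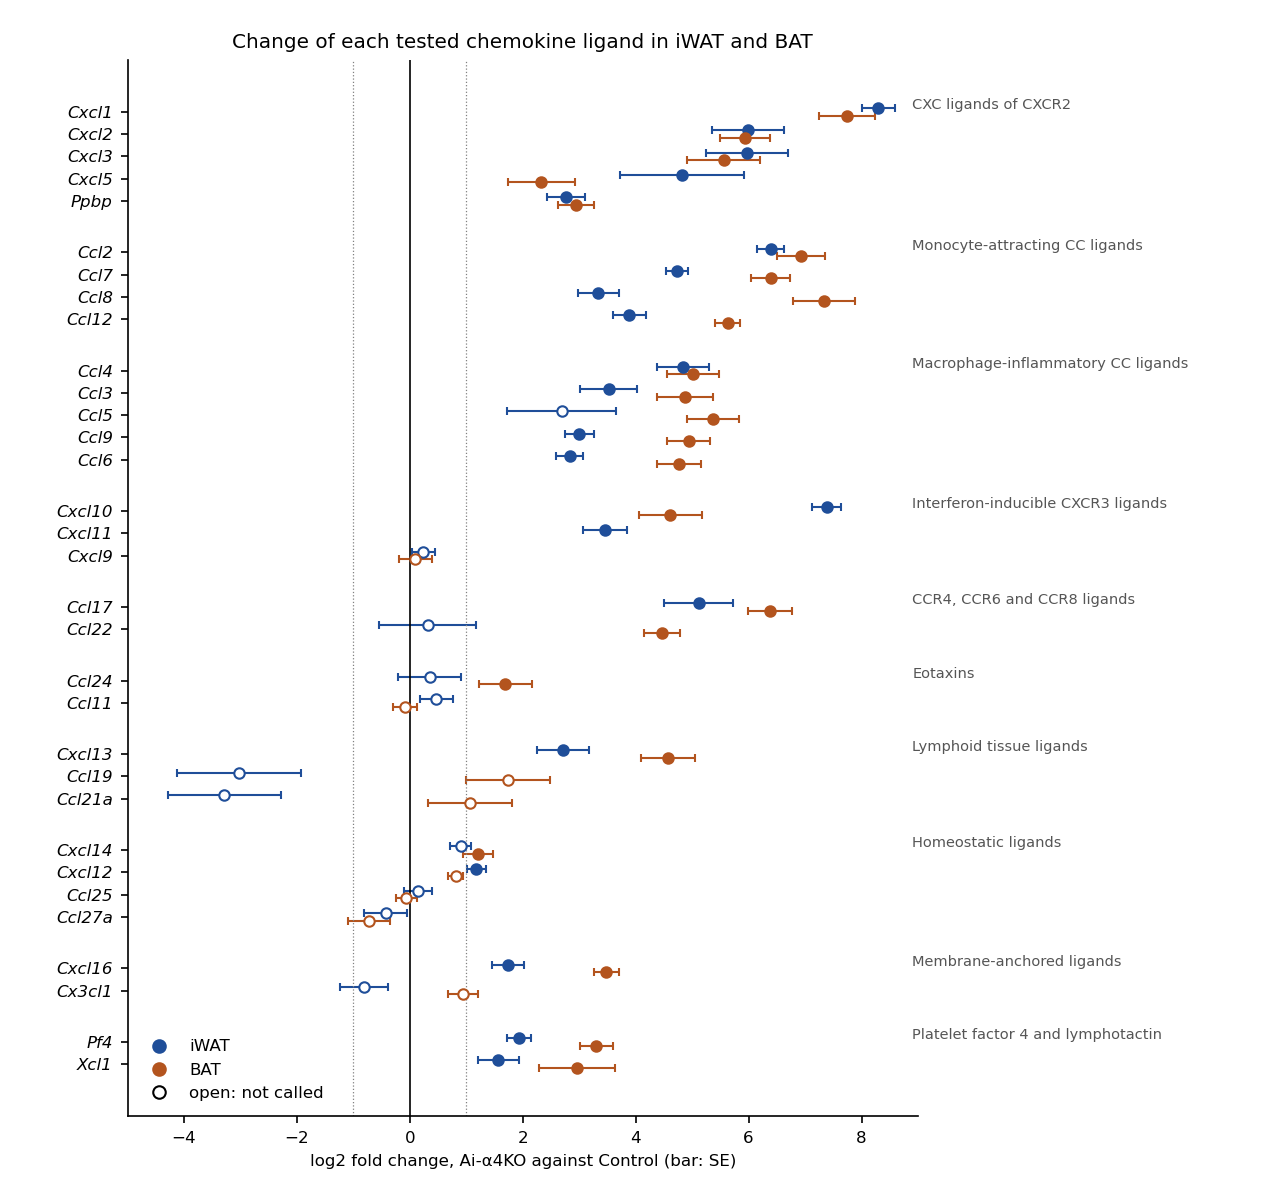
Log2 fold change of each tested member in iWAT (blue) and BAT (brown), with its standard error as a bar, grouped by class; filled points met both limits, an adjusted p of 0.01 and a 2-fold difference (dotted lines). The largest values are those of Cxcl1, at 8.30 in iWAT and 7.74 in BAT, and the points to the left are Ccl19 and Ccl21a in iWAT, which did not pass.

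The CXC ligands of CXCR2, which draw neutrophils, held Cxcl1, which had the largest fitted log2 fold change in both tissues, although in BAT its SE overlapped with that of Ccl8 and limma on log2(FPKM + 1) turned their order. All 5 members of this class that could be tested rose in both. Cxcl1, a neutrophil attractant, was found in iWAT at 0.72, 0.497, 1.16, 0.637 and 0.821 CPM in Control libraries 1 to 5 and 192, 366, 237, 187 and 228 CPM in Ai-α4KO libraries 1 to 5. Control libraries held about 1 CPM or less and no Ai-α4KO library came near them, and the log2 fold change was 8.30 ± 0.30 (SE, adjusted p = 5.36e-08). Its level in BAT was 1.64, 0.156, 0.317, 0.529 and 0.319 CPM in Control libraries 1 to 5 and 137, 132, 177, 70.5 and 120 CPM in Ai-α4KO libraries 1 to 5. The gap in BAT was 7.74 ± 0.50 (adjusted p = 1.7e-07), with Control library 1 the highest of its group and Ai-α4KO library 4 the lowest of its own, and it was 8.51 without that Control library.

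Cxcl2, a close paralog of Cxcl1 with the same receptor, also rose in both tissues. Cxcl2 in iWAT measured 0.508, 3.95, 0.488, 0.376 and 1.58 CPM in Control libraries 1 to 5 and 66.4, 129, 91.1, 68.2 and 83.5 CPM in Ai-α4KO libraries 1 to 5. Control libraries 2 and 5 were above the other 3, and the groups did not overlap (log2 fold change 5.99 ± 0.63, adjusted p = 1.99e-05, and 6.88 without Control library 2). Cxcl2 in BAT measured 1.32, 0.704, 0.181, 0.353 and 0.717 CPM in Control libraries 1 to 5 and 40.2, 41.8, 64.5, 20.7 and 37.6 CPM in Ai-α4KO libraries 1 to 5. The genotypes were again apart, with a log2 fold change of 5.94 ± 0.44 (adjusted p = 4.34e-07).

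Cxcl3, the neighbour of Cxcl1 and Cxcl2 on chromosome 5, lay near the detection limit in Control. Its values in iWAT were 0, 0.466, 0.0376, 0.0868 and 0.264 CPM in Control libraries 1 to 5 and 6.34, 16.2, 10.6, 8.94 and 11.6 CPM in Ai-α4KO libraries 1 to 5. In BAT Cxcl3 stood at 0.273, 0.0782, 0.0453, 0.0353 and 0.159 CPM in Control libraries 1 to 5 and 3.12, 5.19, 11.7, 1.74 and 7.1 CPM in Ai-α4KO libraries 1 to 5. All Ai-α4KO libraries exceeded all Control libraries, by 5.97 ± 0.73 in iWAT and 5.56 ± 0.65 in BAT (adjusted p = 5.3e-05 and 1.53e-05) on the log2 scale, and by 6.78 in iWAT without Control library 2. Control held 0 to 15 counts in iWAT and 1 to 6 in BAT, so these folds are imprecise, and limma on log2(FPKM + 1) gave 3.25 and 2.31. Cxcl5 rose by 4.82 ± 1.1 in iWAT and 2.33 ± 0.59 in BAT (adjusted p = 0.00409 and 0.00464), but 1 Control BAT library (1.73 CPM) lay above 1 Ai-α4KO BAT library (1.47 CPM). In iWAT Cxcl5 stood at 44.1 CPM in Ai-α4KO library 1 and at 2.31 to 6.11 CPM in the other 4, and its log2 fold change was 3.32 without that library and 6.06 without Control library 1. In BAT it was 3.15 without Control library 1. The calls of Cxcl5 were lost without Control library 2, 3 or 5 in either tissue, and in BAT also without Ai-α4KO library 3 or 5. Ppbp, whose product is stored in platelets and cut to a neutrophil attractant, rose by 2.77 ± 0.34 in iWAT and 2.95 ± 0.32 in BAT (adjusted p = 5.06e-05 and 8.66e-06). Neutrophil markers moved with this class: 5 of the 7 tested rose in iWAT and 7 of 7 in BAT, and their sum went from 22.4 to 113 CPM in Control iWAT to 312 to 1030 CPM in Ai-α4KO iWAT, and from 14.4 to 37.5 CPM to 448 to 824 CPM in BAT. Their part in these results was not tested.

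**Figure D2:**
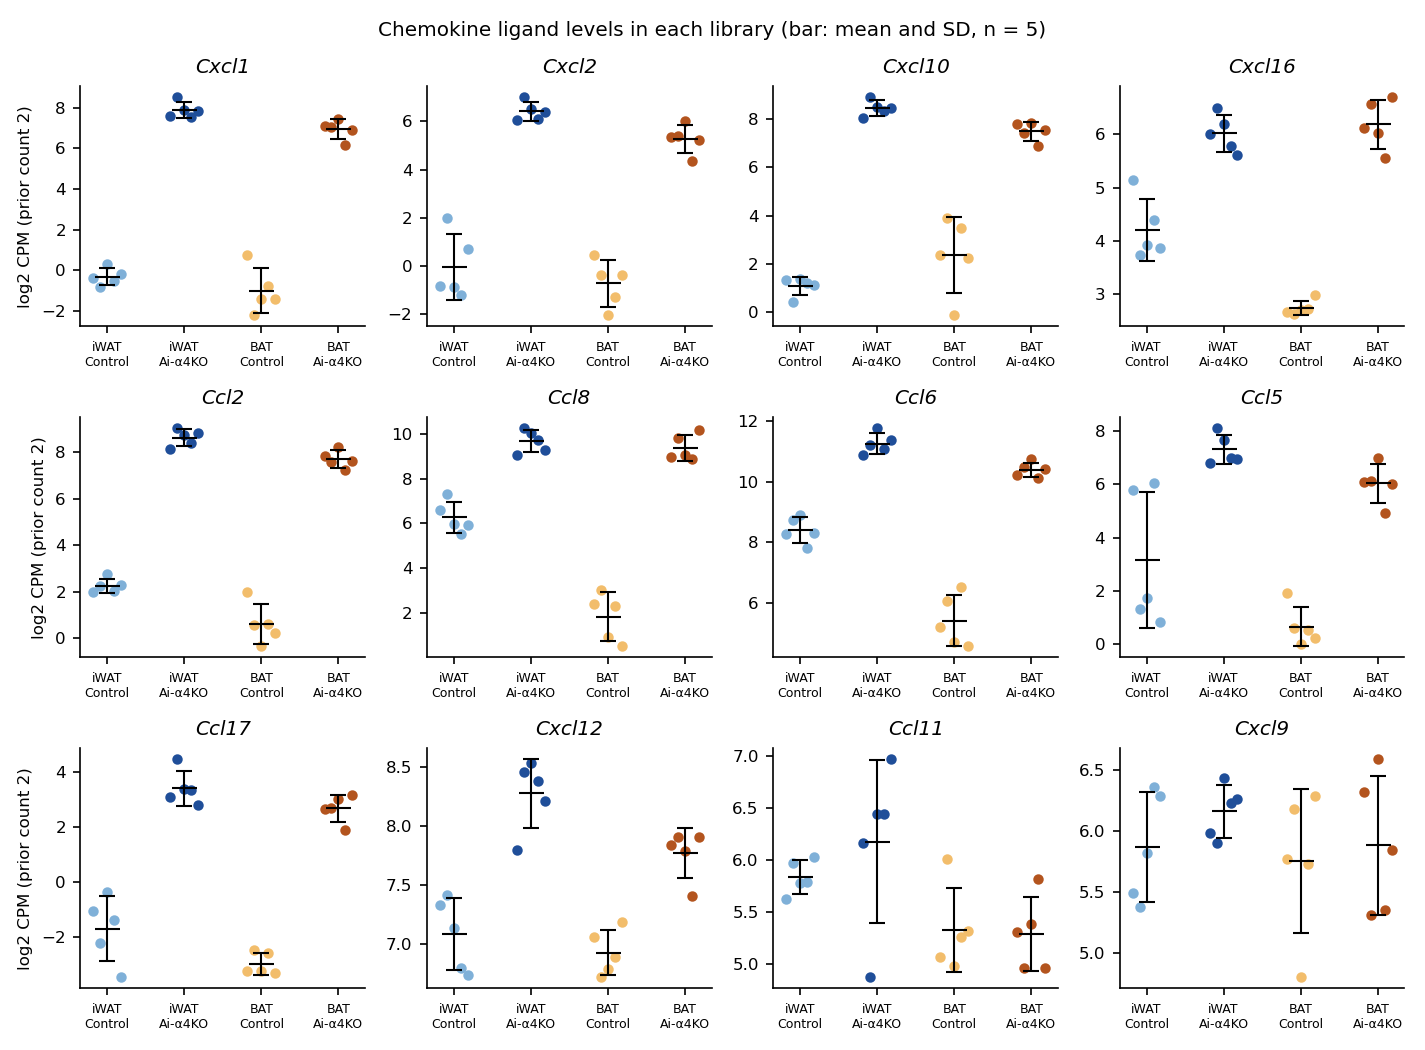
Level of 12 members in each library, as log2 CPM with a prior count of 2, with the mean and SD of 5 libraries per group; the scale differs between panels. Cxcl1 lies between 187 and 366 CPM in Ai-α4KO iWAT and at or below 1.16 CPM in Control iWAT, Ccl8 starts from a far lower level in Control BAT than in Control iWAT, and Ccl11 and Cxcl9 overlap between genotypes.

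Ccl2, Ccl7, Ccl8 and Ccl12, placed here in a class of monocyte-attracting CC ligands, rose in both tissues. Ccl2, Ccl7 and Ccl12 act through CCR2, and the receptor of mouse Ccl8 was not examined. Ccl2, also called MCP-1, was present in iWAT at 3.92, 4.75, 6.65, 3.99 and 4.84 CPM in Control libraries 1 to 5 and 284, 530, 425, 339 and 458 CPM in Ai-α4KO libraries 1 to 5. In BAT Ccl2 stood at 3.92, 1.45, 0.725, 1.48 and 1.11 CPM in Control libraries 1 to 5 and 232, 192, 305, 149 and 196 CPM in Ai-α4KO libraries 1 to 5. The genotypes were far apart in each tissue, with log2 fold changes of 6.39 ± 0.24 in iWAT and 6.93 ± 0.43 in BAT (adjusted p = 5.74e-08 and 1.21e-07).

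Ccl7 lies next to Ccl2 on chromosome 11 and encodes a ligand of the same receptor. In iWAT it measured 5.66, 7.08, 7.14, 5.38 and 8.12 CPM in Control libraries 1 to 5 and 137, 207, 205, 138 and 203 CPM in Ai-α4KO libraries 1 to 5. Ccl7 in BAT was at 2.5, 2.23, 0.544, 1.27 and 1.04 CPM in Control libraries 1 to 5 and 154, 102, 153, 124 and 117 CPM in Ai-α4KO libraries 1 to 5. Control BAT libraries were below every Control iWAT library while Ai-α4KO libraries of the 2 tissues overlapped, and Ccl7 rose by 4.73 ± 0.19 in iWAT and 6.39 ± 0.34 in BAT (adjusted p = 9.77e-08 and 5.83e-08). Ccl12, a mouse gene related to Ccl2, rose as well. Its iWAT values were 3.3, 5.97, 2.55, 3.5 and 2.73 CPM in Control libraries 1 to 5 and 38.6, 78.4, 63.2, 34.4 and 54.8 CPM in Ai-α4KO libraries 1 to 5. Its BAT values were 0.865, 1.17, 1.04, 1.34 and 1.43 CPM in Control libraries 1 to 5 and 70.3, 61.9, 64.7, 37.7 and 65.2 CPM in Ai-α4KO libraries 1 to 5. Ai-α4KO library 4 was the lowest in each tissue, and Ccl12 rose by 3.89 ± 0.30 in iWAT and 5.63 ± 0.22 in BAT (adjusted p = 4.03e-06 and 3.14e-08).

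Ccl8, also known as MCP-2, started from very different levels in the 2 tissues. In iWAT Ccl8 was already abundant in Control, at 98.4, 157, 63, 46.1 and 60.1 CPM in Control libraries 1 to 5 and 537, 1240, 1060, 863 and 621 CPM in Ai-α4KO libraries 1 to 5. Ccl8 in BAT was at 5.24, 8.14, 1.81, 4.94 and 1.35 CPM in Control libraries 1 to 5 and 504, 898, 525, 466 and 1140 CPM in Ai-α4KO libraries 1 to 5. The Control levels of the tissues did not overlap, and the Ai-α4KO levels did. The log2 fold change was 3.34 ± 0.37 in iWAT and 7.34 ± 0.55 in BAT (adjusted p = 2.83e-05 and 4.34e-07).

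The macrophage-inflammatory CC ligands Ccl3, Ccl4, Ccl5, Ccl6 and Ccl9 are made in quantity by myeloid cells, and several of them bind CCR1. Of these, 4 of 5 rose in iWAT and 5 of 5 in BAT. Ccl6, among the most abundant ligands per length in Control iWAT, stood at 312, 431, 482, 223 and 319 CPM in Control libraries 1 to 5 and 1890, 2350, 3510, 2180 and 2650 CPM in Ai-α4KO libraries 1 to 5. The same gene in BAT stood at 36.8, 66.5, 25.9, 92.1 and 24 CPM in Control libraries 1 to 5 and 1190, 1440, 1710, 1120 and 1360 CPM in Ai-α4KO libraries 1 to 5. Ccl6 was higher in every Ai-α4KO library, by 2.83 ± 0.24 in iWAT and 4.77 ± 0.39 in BAT (adjusted p = 5.67e-06 and 8.91e-07) on the log2 scale. Ccl9 lies beside Ccl6 on chromosome 11, and in each of the 4 groups the same library was highest for both genes. Ccl9 values in iWAT were 198, 277, 307, 147 and 205 CPM in Control libraries 1 to 5 and 1190, 1980, 2620, 1420 and 1910 CPM in Ai-α4KO libraries 1 to 5. Ccl9 values in BAT were 25.3, 52.9, 20.2, 61.7 and 21.3 CPM in Control libraries 1 to 5 and 1000, 1290, 1480, 773 and 1110 CPM in Ai-α4KO libraries 1 to 5. The groups did not overlap, and the rises were 3.0 ± 0.26 in iWAT and 4.94 ± 0.38 in BAT (adjusted p = 6.8e-06 and 5.11e-07).

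Ccl3 and Ccl4, or MIP-1α and MIP-1β, were low in Control and rose by 3.52 ± 0.51 and 4.83 ± 0.46 in iWAT and by 4.87 ± 0.50 and 5.01 ± 0.46 in BAT on the log2 scale. Ccl5, or RANTES, which lymphocytes and macrophages release, measured in iWAT 55.7, 2.45, 3.27, 66.7 and 1.7 CPM in Control libraries 1 to 5 and 113, 278, 203, 127 and 123 CPM in Ai-α4KO libraries 1 to 5. Control libraries 1 and 4 were more than 10-fold above the other 3 Control libraries, yet all Control libraries were below all Ai-α4KO libraries. The log2 fold change of 2.69 ± 0.97 did not pass (adjusted p = 0.0351), and without Control libraries 1 and 4 it was 6.02 (adjusted p = 1.18e-05). Of 13 alternatives other than single libraries left out, 6 called Ccl5 higher in iWAT, that fit among them. In BAT, where no library stood apart, Ccl5 was at 3.73, 1.45, 0.952, 1.38 and 1.11 CPM in Control libraries 1 to 5 and 68.6, 69.1, 128, 30.6 and 64.8 CPM in Ai-α4KO libraries 1 to 5. There it rose by 5.37 ± 0.46 (adjusted p = 1.34e-06).

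Macrophage markers moved with the CC ligands. Of 10 genes on the list 9 were in the table and tested, and 8 rose in iWAT and 9 in BAT. Their summed level went from 1370 to 2320 CPM in Control iWAT to 8130 to 11000 CPM in Ai-α4KO iWAT, and from 270 to 632 CPM in Control BAT to 4580 to 7790 CPM in Ai-α4KO BAT, and none of the 9 was at 0 in any group. Their part in the rise of the ligands was not tested.

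The interferon-inducible ligands of CXCR3, which draw activated T cells, lie together within 42 kb of chromosome 5 and did not move as a unit. Cxcl10 in iWAT was at 2.46, 1.27, 2.52, 2.29 and 2.14 CPM in Control libraries 1 to 5 and 265, 482, 365, 324 and 350 CPM in Ai-α4KO libraries 1 to 5. In BAT Cxcl10 stood at 5.14, 14.9, 0.861, 11.2 and 4.74 CPM in Control libraries 1 to 5 and 220, 169, 226, 117 and 189 CPM in Ai-α4KO libraries 1 to 5. Its Control levels were tight in iWAT and spread in BAT, where library 3 was lowest, and no Control library reached an Ai-α4KO library. Cxcl10 rose by 7.38 ± 0.25 in iWAT and 4.61 ± 0.56 in BAT (adjusted p = 4.99e-08 and 1.93e-05).

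Cxcl9, the neighbour of Cxcl10 and a target of interferon-γ, was among the 5 most abundant ligands per length in Control BAT. Cxcl9 levels in iWAT were 44.8, 41.6, 56.3, 81.9 and 78.4 CPM in Control libraries 1 to 5 and 63.2, 59.7, 86.3, 74.8 and 76.4 CPM in Ai-α4KO libraries 1 to 5. Cxcl9 levels in BAT were 54.4, 72.3, 27.8, 53.2 and 78.3 CPM in Control libraries 1 to 5 and 79.8, 39.5, 96.5, 40.8 and 57.2 CPM in Ai-α4KO libraries 1 to 5. The genotypes overlapped in both tissues and neither difference passed (0.24 ± 0.20, adjusted p = 0.323, in iWAT and 0.10 ± 0.30, adjusted p = 0.783, in BAT). Cxcl11 was low throughout: it rose by 3.45 ± 0.39 in iWAT (0.0289 to 0.155 CPM in Control, 0.80 to 1.32 CPM in Ai-α4KO) and was not kept by the filter in BAT. It was called higher there with no filter, or when the filter was applied without any 1 Control library or without Ai-α4KO library 2. In BAT Control held at most 3 counts and Ai-α4KO was at least 9.49-fold higher against a floor of 3 counts per library.

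Among ligands of CCR4, Ccl17 is a product of dendritic cells and macrophages that draws T cells. Ccl17 in iWAT measured 0.424, 0.155, 0.714, 0.318 and 0.0293 CPM in Control libraries 1 to 5 and 8.26, 21.9, 10.2, 9.92 and 6.9 CPM in Ai-α4KO libraries 1 to 5. In BAT Ccl17 measured 0.0455, 0.117, 0.0453, 0.106 and 0.0398 CPM in Control libraries 1 to 5 and 6.13, 6.26, 7.92, 3.57 and 8.86 CPM in Ai-α4KO libraries 1 to 5. Control BAT held at most 3 counts in any library, so the mean was at least 53.2-fold higher in Ai-α4KO BAT, and in iWAT Ccl17 rose by 5.12 ± 0.61 on the log2 scale (adjusted p = 4.56e-05). Ccl22, which shares that receptor, rose in BAT by 4.46 ± 0.32 (adjusted p = 3.53e-07, and by 2.14 with limma on log2(FPKM + 1)) and did not pass in iWAT (0.32 ± 0.86, adjusted p = 0.77).

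The lymphoid tissue ligands are taken up with Ccl22 because the same 2 Control iWAT libraries set their values; library values of Ccl19, Ccl21a and Ccl22 are given after they were seen. Ccl19 and Ccl21a bind CCR7 and bring T cells and dendritic cells into lymph nodes. Ccl19 in iWAT was at 21.1, 0.839, 0.639, 28 and 0.645 CPM in Control libraries 1 to 5 and 0.943, 0.98, 1.18, 1.22 and 2 CPM in Ai-α4KO libraries 1 to 5. Ccl21a in iWAT was at 76.2, 7.4, 4.73, 84.2 and 4.1 CPM in Control libraries 1 to 5 and 7.92, 1.39, 3.65, 0.448 and 4.85 CPM in Ai-α4KO libraries 1 to 5. Ccl22 in iWAT was at 25, 1.18, 1.43, 28 and 1.52 CPM in Control libraries 1 to 5 and 6.54, 18.6, 16.1, 18.5 and 12.6 CPM in Ai-α4KO libraries 1 to 5. For all 3 genes, Control libraries 1 and 4 were the highest of the 10 and the other 3 Control libraries were much lower.

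These were the 2 libraries with lymphocyte and lymph node markers. B cell markers summed to 563 and 219 CPM in Control iWAT libraries 1 and 4 and to between 7.12 and 8.97 CPM in the other 3, and T cell markers to 270 and 294 CPM against 14.1 to 18.1 CPM. Markers of lymph node stroma summed to 93.4 and 50.6 CPM against 0.826 to 1.29 CPM. That list shares Cr2 with the B cell list, so these sums are not independent. In Ai-α4KO iWAT no library exceeded 17.6 CPM for the B cell markers, of which 9 of 10 genes were in the table.

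With all libraries, the log2 fold change in iWAT was -3.03 ± 1.1 for Ccl19 (adjusted p = 0.0312) and -3.29 ± 1.0 for Ccl21a (adjusted p = 0.019). Without Control libraries 1 and 4 it was 0.75 for Ccl19 (adjusted p = 0.0894), -0.65 for Ccl21a (adjusted p = 0.466) and 3.30 for Ccl22 (adjusted p = 7.29e-05). That fit called 23 members higher in iWAT, Ccl22 and Ccl5 being added to the 21. In BAT, Ccl19 and Ccl21a did not pass (1.74 ± 0.74, adjusted p = 0.0581, and 1.07 ± 0.74, adjusted p = 0.224). Without Control BAT library 4 Ccl19 passed, at 3.01 (adjusted p = 0.00428), as it did by limma on log2(FPKM + 0.1). With the skeletal muscle marker score as a covariate Ccl19 was 0.41, though the muscle marker sums did not overlap between the BAT genotypes. Ccl21a was 0.41 without Ai-α4KO BAT library 4. Ccl19 and Ccl21a are each listed on 2 rows with the same values in all 20 libraries, and how reads shared between copies were split is not given in the sources used here. Cxcl13, a B cell attractant, is grouped with these ligands, and it rose in both tissues, by 2.72 ± 0.46 in iWAT and 4.57 ± 0.48 in BAT (adjusted p = 0.00045 and 6.82e-06).

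**Figure D3:**
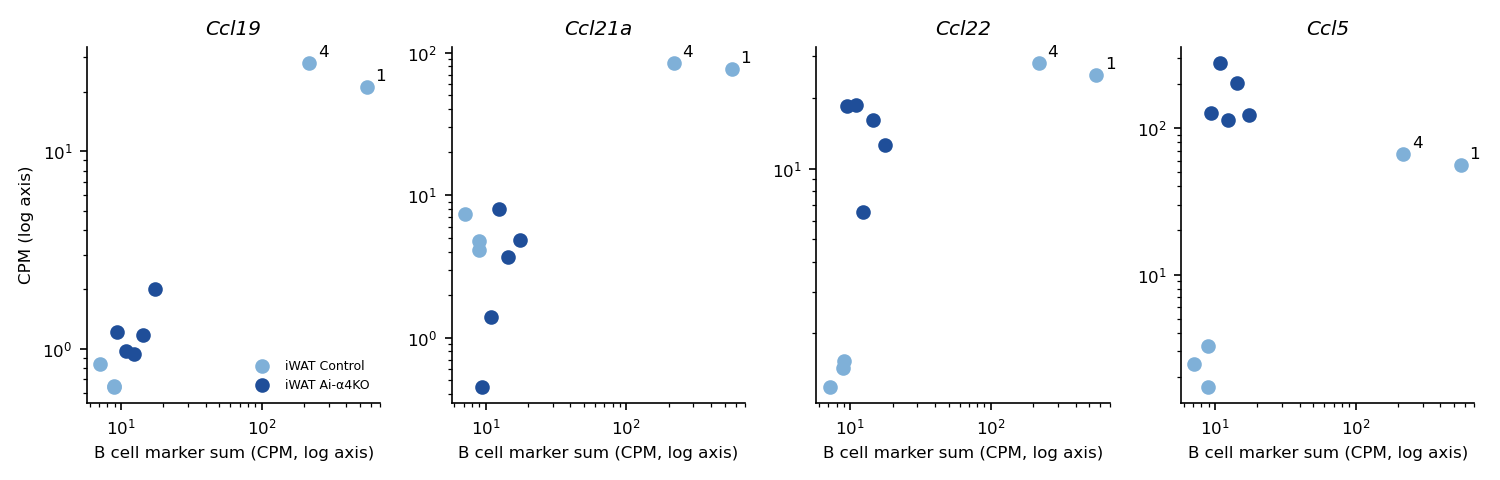
Level of Ccl19, Ccl21a, Ccl22 and Ccl5 (CPM, log axis) against the summed B cell markers (CPM, log axis) in the 10 iWAT libraries, Control in light blue and Ai-α4KO in dark blue. Control libraries 1 and 4, numbered, lie to the right at 563 and 219 CPM of B cell markers and above the other 3 Control libraries for all 4 genes.

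The 4 homeostatic ligands and 2 eotaxins that could be tested had log2 fold changes under 2 in both tissues. Ccl28, at 37 counts or fewer in any iWAT library, was not tested. Cxcl12, made by stromal cells and a ligand of CXCR4, was among the abundant ligands of Control BAT. Cxcl12 in iWAT was at 160, 171, 141, 111 and 107 CPM in Control libraries 1 to 5 and 223, 352, 370, 332 and 296 CPM in Ai-α4KO libraries 1 to 5. Cxcl12 in BAT was at 133, 105, 111, 118 and 145 CPM in Control libraries 1 to 5 and 229, 240, 221, 170 and 241 CPM in Ai-α4KO libraries 1 to 5. No library of 1 genotype overlapped the other, and Cxcl12 passed in iWAT, rising by 1.18 ± 0.17 (adjusted p = 0.000186). Its BAT log2 fold change of 0.81 ± 0.14 (adjusted p = 0.000265) was under the fold threshold. Over 12 alternatives other than single libraries left out, the BAT value ran from 0.8 to 1.08, and 4 of them called Cxcl12 higher. Cxcl14 was under that threshold in iWAT (0.90 ± 0.18, adjusted p = 0.00121) and rose in BAT (1.21 ± 0.26, adjusted p = 0.00172), whereas Ccl25 and Ccl27a lay between -0.72 and 0.15 in both tissues.

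Ccl11, or eotaxin-1, draws eosinophils and was among the most abundant ligands per length in Control BAT. Ccl11 in iWAT measured 49, 62.7, 55, 55.3 and 65.4 CPM in Control libraries 1 to 5 and 71.5, 29.2, 86.9, 86.8 and 125 CPM in Ai-α4KO libraries 1 to 5. Ccl11 in BAT measured 33.6, 64.3, 31.5, 38.1 and 39.9 CPM in Control libraries 1 to 5 and 39.6, 31.1, 41.7, 56.3 and 31.1 CPM in Ai-α4KO libraries 1 to 5. The genotypes overlapped in both tissues, and the differences were 0.47 ± 0.29 in iWAT and -0.09 ± 0.21 in BAT (adjusted p = 0.19 and 0.737), the latter turning to 0.17 when no normalization factor was used. Ccl24, or eotaxin-2, rose in BAT (1.69 ± 0.47, adjusted p = 0.00762) and did not pass in iWAT (0.35 ± 0.56, adjusted p = 0.621). DESeq2 did not call it in BAT, and in iWAT it was -0.25 without Ai-α4KO library 5. Its BAT call was lost without Control library 1, 2, 3 or 5 or Ai-α4KO library 4, which left 0.99, and that of Cxcl14 without Ai-α4KO library 5. Fibroblast and progenitor markers summed to 1340 to 2320 CPM in Control BAT and 3950 to 5580 CPM in Ai-α4KO BAT (3 of 8 rose), and overlapped in iWAT. Of 6 mast cell and eosinophil markers tested, 5 rose in BAT and 1 fell, and 1 rose and 1 fell in iWAT. Among all genes tested 18.2% rose and 13.3% fell in BAT, and 11.3% rose and 10.7% fell in iWAT. The mast cell and eosinophil markers summed to 29.5 to 62.5 CPM in Control BAT and 88 to 135 CPM in Ai-α4KO BAT. The part of these cells in the levels of Cxcl12 and the eotaxins was not tested.

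A pair of ligands is made as membrane proteins from which the chemokine part is cut. Cxcl16, the ligand of CXCR6 and a scavenger receptor of macrophages, was in iWAT at 35.2, 13.2, 15.1, 20.9 and 14.6 CPM in Control libraries 1 to 5 and 64.2, 89.6, 73.5, 55 and 49.1 CPM in Ai-α4KO libraries 1 to 5. Its BAT values were 6.28, 6.14, 6.48, 6.56 and 7.8 CPM in Control libraries 1 to 5 and 69.2, 94.4, 65.2, 46.9 and 104 CPM in Ai-α4KO libraries 1 to 5. Cxcl16 rose by 1.74 ± 0.28 in iWAT and 3.48 ± 0.22 in BAT (adjusted p = 0.000338 and 1.28e-07), and Control iWAT library 1 was the highest of the Control libraries. Cx3cl1, or fractalkine, had differences of -0.81 ± 0.42 in iWAT and 0.94 ± 0.26 in BAT (adjusted p = 0.125 and 0.00816), the latter under the fold threshold.

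Pf4 and Xcl1 complete the set. Pf4, platelet factor 4, measured in iWAT 56.8, 51, 61.9, 42.5 and 59.5 CPM in Control libraries 1 to 5 and 156, 304, 246, 148 and 186 CPM in Ai-α4KO libraries 1 to 5. In BAT it measured 13, 21.4, 8.29, 18.3 and 9.88 CPM in Control libraries 1 to 5 and 172, 196, 136, 92.6 and 120 CPM in Ai-α4KO libraries 1 to 5. Pf4 rose without overlap by 1.93 ± 0.21 in iWAT and 3.30 ± 0.29 in BAT (adjusted p = 2.26e-05 and 1.36e-06). Markers of platelets and megakaryocytes summed to 15.4 to 36 CPM in Control iWAT and 12.4 to 24.6 CPM in Ai-α4KO iWAT, and to 4.83 to 9.42 CPM and 9.08 to 14.7 CPM in BAT. Of these markers 0 of 3 tested passed in iWAT (0 at an unadjusted p below 0.05) and 1 of 2 in BAT, Itgb3, and their summed levels overlapped between the genotypes in both tissues. The macrophage marker sums given above did not overlap in either tissue, and the part of either cell type in the level of Pf4 was not tested. Xcl1, lymphotactin, rose from low levels by 1.57 ± 0.37 in iWAT and 2.96 ± 0.68 in BAT (adjusted p = 0.00421 and 0.0025), and by 3.59 in BAT without Control library 1. Its iWAT call was lost without Control library 2, 3 or 5 or Ai-α4KO library 3, 4 or 5.

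Position in the genome was compared with these calls, using the coordinates of the deposited table (mm10). Among all genes tested 11.3% rose in iWAT and 18.2% in BAT. A CXC cluster at chr5:90759298-90905938 holds Cxcl5, Ppbp, Pf4, Cxcl3, Cxcl15, Cxcl1 and Cxcl2, and 6 of its 6 tested genes rose in each tissue. Further along, chr5:92321331-92363296 holds Cxcl9, Cxcl10 and Cxcl11, with 2 of 3 higher in iWAT and 1 of 2 in BAT. On chromosome 11, chr11:82035577-82179812 holds Ccl2, Ccl7, Ccl11, Ccl12, Ccl8 and Ccl1. There 4 of 5 tested genes rose in each tissue and Ccl11, between Ccl7 and Ccl12, did not. A second group at chr11:83525779-83664683, with Ccl5, Ccl9, Ccl6, Ccl3 and Ccl4, had 4 of 5 higher in iWAT and 5 of 5 in BAT. Ccl22, Cx3cl1 and Ccl17 at chr8:94745684-94812036 had 1 of 3 higher in iWAT and 2 of 3 in BAT. The lymphoid and skin ligands of chromosome 4 had no gene called by edgeR in either tissue, of 3 tested, where DESeq2 called Ccl19 and Ccl21a lower in iWAT.

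Levels of different genes were compared only per length, by the FPKM of the deposited table. Summed over the 41 members, Control iWAT held 645 to 955 FPKM and Ai-α4KO iWAT 4660 to 8140. Control BAT held 95 to 200 FPKM and Ai-α4KO BAT 2550 to 4670, so the genotypes did not overlap in either tissue. The means were 792 ± 134 and 6560 ± 1530 in iWAT, and 157 ± 44.7 and 3930 ± 873 in BAT (SD, 5 libraries each). Chemokine ligands made up 0.15% to 0.217% of all FPKM in Control iWAT, 0.998% to 1.74% in Ai-α4KO iWAT, 0.0207% to 0.0427% in Control BAT and 0.514% to 1.0% in Ai-α4KO BAT.

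The leading ligands were partly different genes in the Control tissues. In Control iWAT the leading ligands by mean FPKM were Ccl6 (219 ± 54.8), Ccl8 (151 ± 83.1), Pf4 (82.8 ± 10), Ccl9 (67.1 ± 16.3) and Ccl11 (48.2 ± 6.16). In Control BAT they were Ccl11 (29.8 ± 8.58), Ccl6 (26.6 ± 16.3), Pf4 (18.6 ± 7.07), Cxcl9 (15.3 ± 5.33) and Cxcl12 (13.3 ± 2.16). The SDs of neighbours in these orders overlap, so only the broad order is read. In Ai-α4KO the first 6 by mean FPKM were the same genes in both tissues, Ccl6, Ccl8, Ccl9, Ccl2, Pf4 and Cxcl10, in the same order but for the first 2. The last place was a near tie, with Cxcl10 at 318 ± 68.4 and Ccl5 at 311 ± 128 in iWAT. In BAT Cxcl10 was at 153 ± 39.8 and Ccl7 at 148 ± 26.6. Ccl6 and Ccl8 made up 26.4% and 24.9% of the sum in Ai-α4KO iWAT and 22.4% and 31.6% in Ai-α4KO BAT. Ccl11 went from 19.6% of the sum in Control BAT to 0.938% in Ai-α4KO BAT, while its own level overlapped between the genotypes.

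**Figure D4:**
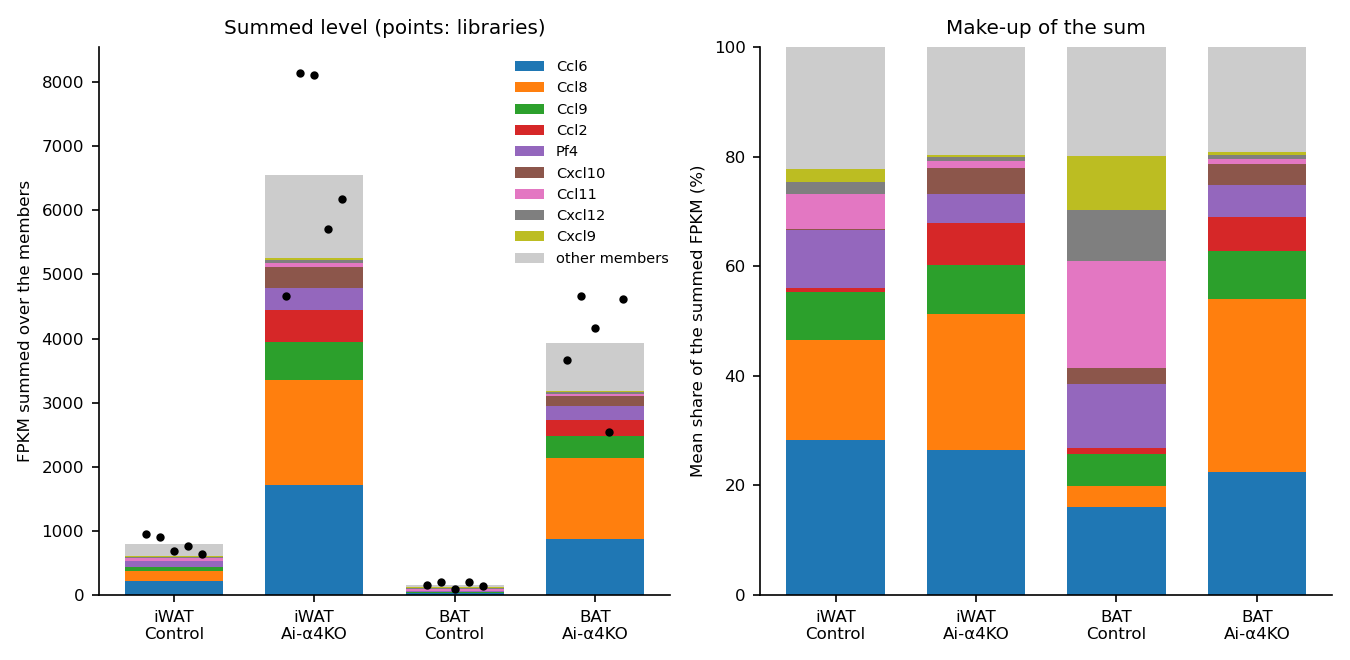
Left, mean FPKM of 9 ligands and of the other members stacked to the sum in each group, with the sum of each library as a point; right, mean share of the sum in percent. The means are 792 and 6560 FPKM in Control and Ai-α4KO iWAT and 157 and 3930 FPKM in BAT, and Ccl6 and Ccl8 are the 2 largest parts in both Ai-α4KO groups.

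The next question was whether the effect of the deletion differed between tissues, using the genotype-by-tissue term of a model over the 20 libraries. Of 34 members tested, 6 had a larger log2 fold change in BAT and 1 a larger one in iWAT at an adjusted p below 0.01, where 3.26% and 1.60% of all genes tested passed in these directions. The difference, BAT minus iWAT, was 4.01 ± 0.62 for Ccl8 (adjusted p = 0.000649), 1.97 ± 0.44 for Ccl6 (adjusted p = 0.00685) and 1.96 ± 0.44 for Ccl9 (adjusted p = 0.00687). It was 1.77 ± 0.36 for Cxcl16 (adjusted p = 0.00346), 1.77 ± 0.36 for Ccl12 (adjusted p = 0.00383) and 1.68 ± 0.37 for Ccl7 (adjusted p = 0.00588). Cxcl10 alone went the other way, with -2.75 ± 0.61 (adjusted p = 0.00627), but that call was lost without any 1 of 15 of the 20 libraries (adjusted p up to 0.0139), all but Control iWAT 3, Ai-α4KO iWAT 1 and Control BAT 1, 3 and 5. Without Control iWAT 1 and 4 together the Cxcl10 call was also lost (adjusted p = 0.02), while the difference was nearly unchanged at -2.74. The calls of Ccl6 and Ccl9 were lost without Control iWAT 2 or 3 or Control BAT 1, 3 or 5 (adjusted p up to 0.0157), and that of Ccl7 without Control iWAT 5 or Control BAT 4 or 5 (adjusted p up to 0.0126). A fit with the replicate number as a block also ended the calls of Cxcl10, Ccl7 and Ccl6 (adjusted p = 0.0232, 0.0123 and 0.0123). That block also ties Control to Ai-α4KO libraries, which come from different mice, so it does not model tissues of the same mouse. Ccl8, Ccl12 and Cxcl16 kept their calls when single libraries were left out, but limma on log2(FPKM + 1) lost those of Ccl12 and Cxcl16 (adjusted p = 0.0113 and 0.0134). Of the 5 CXC ligands of CXCR2 tested, 0 passed in edgeR, also at an unadjusted p below 0.05, with differences from -2.45 to 0.2. For Cxcl1 the difference was -0.54 ± 0.57 (adjusted p = 0.544) and for Cxcl2 -0.02 ± 0.93 (adjusted p = 0.99). With so few of all genes passing, 0 of 5 does not show that this class responded alike in both tissues.

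The tissues were also compared within each genotype. These comparisons use the same libraries as the interaction, so their values are given side by side and are not separate evidence. In Control, 13 of 27 members tested were lower in BAT than in iWAT and 0 were higher by edgeR, where 14.7% of all genes were lower and 7.22% higher. The 13 were Ccl2, Ccl7, Ccl8, Ccl12, Ccl5, Ccl6, Ccl9, Cxcl13, Cxcl16, Pf4, Ccl24, Ccl22 and Ccl19. At an unadjusted p below 0.05, 3 members were higher in BAT, and DESeq2 called 1 of them, Cxcl10. The difference was -4.35 ± 0.52 for Ccl8 (adjusted p = 5.41e-05), -2.89 ± 0.39 for Ccl6 (adjusted p = 0.000116), -2.69 ± 0.35 for Ccl9 (adjusted p = 9.51e-05) and -1.61 ± 0.26 for Cxcl16 (adjusted p = 0.000368). Without Control iWAT libraries 1 and 4, 10 members were lower and 1 higher (Ccl27a), with Ccl19, Ccl5 and Ccl2 lost. The difference between Control tissues went from -5.47 to -1.61 for Ccl19, from -3.94 to -0.54 for Ccl5 and from -4.94 to -1.88 for Ccl22, which still passed (adjusted p = 0.000439). That of Ccl2 did not shrink, going from -1.51 to -1.66 (adjusted p = 0.0124). The interactions of Ccl19, Ccl21a and Ccl22, 4.79, 4.39 and 4.16 with all libraries, were 1.08, 1.79 and 1.23 without Control iWAT 1 and 4 and passed in neither fit. That of Ccl22 passed without Control iWAT 2, 3 or 5, and each of these genes passed in 2 other alternatives. Leaving out single Control libraries gave 10 to 13 calls, among them Cxcl14 as higher without iWAT 1 or 2 or BAT 3, 4 or 5, Ccl27a as higher without iWAT 4, and Cxcl10 as higher without BAT 3. The call of Ccl2 was lost without any single Control library but BAT 1, that of Ccl5 without iWAT 1 or 4 or any BAT library, and that of Ccl19 without iWAT 1 or 4 or BAT 1, 2, 3 or 5.

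In Ai-α4KO, 0 of 32 members tested were lower in BAT and 2 were higher, against 3.09% and 8.40% of all genes. At an unadjusted p below 0.05, 14 of the 32 were lower in BAT, and DESeq2 called Cxcl2 and Ccl5 lower. The 2 that were higher in BAT were Cx3cl1 (2.06 ± 0.32, adjusted p = 0.000806) and Cxcl14 (1.40 ± 0.27, adjusted p = 0.00246). Ccl8 differed between the Ai-α4KO tissues by -0.24 ± 0.30 (adjusted p = 0.568) and Cxcl16 by 0.24 ± 0.22 (adjusted p = 0.413). Ccl6 and Ccl2 were lower in BAT by less than the fold threshold, at -0.83 ± 0.18 (adjusted p = 0.00508) and -0.87 ± 0.21 (adjusted p = 0.00836). Without normalization factors, which moved the median of all genes by -0.16 on the log2 scale, 4 members were called lower in Ai-α4KO BAT (Cxcl1, Cxcl2, Cxcl10 and Ccl2).

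Of the macrophage markers, all 9 were lower in BAT than in iWAT in Control, 1 of 9 in Ai-α4KO, and 6 of 9 had a larger effect in BAT. In Ai-α4KO 7 of the 9 were lower in BAT at an unadjusted p below 0.05, and the log2 differences ran from -1.16 to -0.36. Skeletal muscle markers summed to 999 to 10200 CPM in Control BAT and 14200 to 48100 CPM in Ai-α4KO BAT, and with their score as a covariate 20 members rose in BAT, Cxcl5, Ccl24 and Cxcl14 being lost. The muscle sums did not overlap between the genotypes, so this covariate cannot be fully told apart from the deletion. The part of macrophages in the difference between tissues was not tested.

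**Figure D5:**
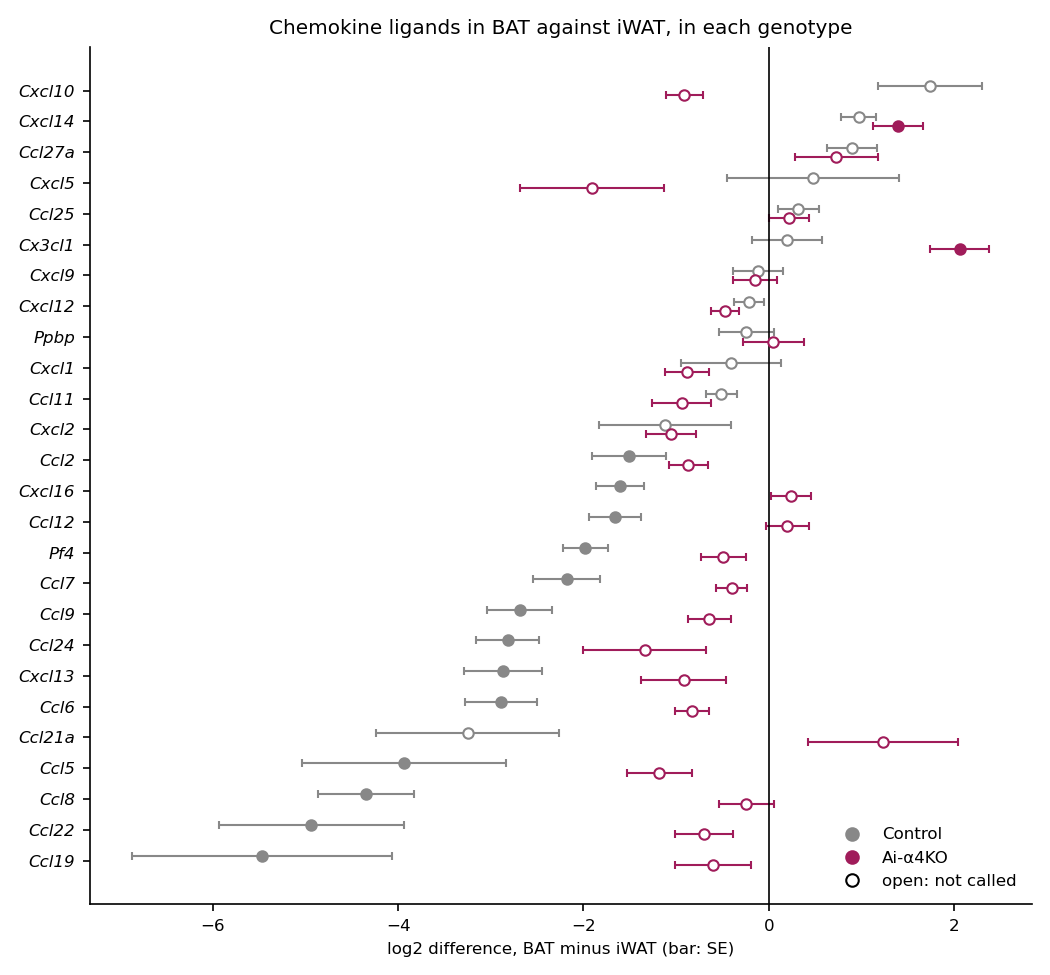
Log2 difference between BAT and iWAT in Control (grey) and in Ai-α4KO (purple) for the 26 members tested in both genotypes, with its standard error; filled points met both limits, an adjusted p of 0.01 and a 2-fold difference. Control points reach to -5.47 (Ccl19, which is -1.61 without Control iWAT libraries 1 and 4) and 13 are filled, while in Ai-α4KO the filled points are Cx3cl1 and Cxcl14.

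Other genes of the chemokine pathway were taken from lists. Ccr1, Ccr2 and Cxcr2, receptors of CC and CXC ligands that rose, were higher in both tissues. Their log2 fold changes were 3.24 ± 0.32, 3.36 ± 0.32 and 2.44 ± 0.50 in iWAT, and 5.42 ± 0.38, 4.59 ± 0.37 and 4.33 ± 0.36 in BAT. Ccr7, Ccr9, Cxcr3, Cxcr4, Cxcr6, Cx3cr1 and Xcr1 also rose in BAT, by 1.05 to 5.07, and Ccr10 fell by 2.14 there. In iWAT these 7 had values between -0.60 and 1.05 and did not pass with all libraries. Without Control libraries 1 and 4, Ccr7, Ccr9 and Cxcr3 passed in iWAT, at 3.10 ± 0.36, 3.10 ± 0.48 and 1.12 ± 0.19, and the other 4 had values between 0.73 and 1.21. T cell markers moved with them: 5 of 8 tested rose in BAT, where their sum went from 4.94 to 9.74 CPM in Control to 21.6 to 72 CPM in Ai-α4KO, and 0 of 9 passed in iWAT (5 were lower at an unadjusted p below 0.05). Without Control iWAT libraries 1 and 4, 2 of the 9 rose, Cd2 (2.19 ± 0.36) and Cd4 (3.13 ± 0.51), 6 were higher at an unadjusted p below 0.05, and 0 were lower. The sum was 28.1 to 68.1 CPM in Ai-α4KO iWAT, above the 14.1 to 18.1 CPM of the other 3 Control libraries. Their part in the receptor values was not tested. Ccr1 passed the interaction test, with a BAT minus iWAT difference of 2.20 (adjusted p = 0.0059).

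Of the atypical receptors, which take up chemokines without signalling for migration, 1 of 5 tested rose in iWAT and 2 of 4 in BAT. Among all genes tested 11.3% rose in iWAT and 18.2% in BAT. Ccrl2 rose in both tissues (1.83 ± 0.24 and 1.18 ± 0.30) and Ackr1 in BAT (1.72 ± 0.29). Ackr4 was at -1.49 ± 0.52 in iWAT and did not pass (adjusted p = 0.0312). Inducers of chemokine transcription were higher in 12 of 20 cases in each tissue, against the same shares of all genes. Of these inducers 0 were lower, also at an unadjusted p below 0.05. Il6 rose by 9.32 ± 0.52 in iWAT and 8.71 ± 0.46 in BAT, Il1b by 4.95 ± 0.47 and 5.53 ± 0.28, and Tnf by 2.25 ± 0.52 and 4.28 ± 0.34 on the log2 scale. Ifng, Ifnb1 and Il17a were not kept by the filter in either tissue. Among the signalling genes Tlr2, Tlr4, Myd88, Rel, Nfkb2 and Irf7 rose in both tissues, by 1.12 to 4.0, while Rela, Relb, Nfkb1, Nfkbia and Irf1 had values between 0.19 and 0.74 and were not called. Of enzymes that trim or release chemokines, Mmp12 and Adam17, the latter known for releasing membrane-bound ligands, rose in both tissues, and Mmp8, Mmp9 and Mmp14 rose in BAT.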

How the data were processed

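Stranded mRNA libraries (TruSeq) had been sequenced as paired reads. The submitters' processing notes name bcl2fastq 2, STAR 2.5.3a and mm10; the counting tool is not given in the sources used here. The authors deposited expected counts per gene and library, not normalized, and FPKM, the count per transcript length and library total. Of the nonzero expected counts 76.7% were whole.

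Counts were rounded, filtered with filterByExpr, scaled by TMM and fitted in edgeR 4.0.16 (R 4.3.3) within each pair of groups, or over all 20 libraries for the interaction. P-values were Benjamini-Hochberg adjusted over all genes, and SE is the log2 fold change over the root of F. CPM used TMM factors over all libraries. A simulation with known changes was tested first. Depth allows a floor of 3 counts per library, which covers counting error only. Alternatives used DESeq2 1.42.0, limma 3.58.1 on log2(FPKM + 1) and log2(FPKM + 0.1), other scalings, filters and thresholds, marker scores and libraries left out.

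The members and lists were chosen with earlier results of these data known. Library values are printed for the 10 largest changes among the called members, Ccl2, Ccl5, Cxcl10, the 5 most abundant ligands of each Control tissue by FPKM, and members lower in either tissue or passing the interaction, 17 in all. Ccl19, Ccl21a and Ccl22 were added after their values were seen. Some genes of the pathway lists are not reported here.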

Additional observations from a re-analysis of the deposited data

Results flagged for a closer look

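In groups of 5 libraries, 4 of the 68 groups of values examined (17 ligands in 4 groups) held a library set apart from the other 4 by more than Dixon's 95% critical value of 0.71 on the log2 scale; chance marks about 1 in 20 groups. Cxcl10 was low in Control iWAT library 2, at 1.27 CPM against 2.14 to 2.52 CPM in the others. Ccl12 was low in Ai-α4KO BAT library 4, at 37.7 CPM against 61.9 to 70.3 CPM, and Cxcl12 was low in the same library, at 170 CPM against 221 to 241 CPM. Cxcl16 was high in Control BAT library 5, at 7.80 CPM against 6.14 to 6.56 CPM.

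The effect of the deletion differed between BAT and iWAT for 7 ligands by the interaction test. The difference in log2 fold change, BAT minus iWAT, was -2.75 for Cxcl10, 1.77 for Cxcl16, 1.68 for Ccl7, 1.77 for Ccl12, 4.01 for Ccl8, 1.96 for Ccl9 and 1.97 for Ccl6. Of these, Cxcl10 was the least stable on leaving libraries out.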

How the results depend on the processing

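The count of ligands called in iWAT, 21, was 14 to 24 under all alternatives, and leaving out single libraries gave 19 to 21. In BAT, 23 calls became 14 when at least 10 counts were required in every library, which leaves 21 members tested, and 20 to 26 otherwise (22 to 25 without single libraries, 1 of them lower without Ai-α4KO BAT library 5). The count of ligands whose effect differed between tissues, 7, became 12 with DESeq2 or an adjusted p below 0.05, and 4 with limma on log2(FPKM + 1), which lost Cxcl10, Cxcl16 and Ccl12, or with a replicate block, which lost Cxcl10, Ccl7 and Ccl6. It was 4 to 8 without single libraries. The 13 differences between Control tissues became 10 to 15. The 2 between Ai-α4KO tissues became 4 with DESeq2, an adjusted p below 0.05 or the replicate block, 6 without normalization factors or with limma on log2(FPKM + 0.1), and 5 with no fold threshold or with limma on log2(FPKM + 1), and 2 to 5 without single libraries, the highest without Ai-α4KO BAT library 3. The cause was not tested.

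The sign turned for values that had not passed: Ccl11 in BAT, -0.09, became 0.17 without normalization factors and 0.18 and 0.19 with limma at pseudocounts of 1 and 0.1, and ranged from -0.19 to 0.10 without single libraries. Cxcl9 in BAT became -0.01 with the muscle score as a covariate and ranged from -0.12 to 0.27 without single libraries. Ccl19 in iWAT became 0.75 without Control libraries 1 and 4 and 0.48 with the B cell score as a covariate. The interaction of Igbp1 ranged from -0.01 to 0.34 without single libraries. Without the most abundant ligand the summed FPKM was 573, 4850 and 2660 in Control iWAT, Ai-α4KO iWAT and Ai-α4KO BAT. Between iWAT and BAT of the same genotype, deviations of same-numbered libraries had correlations from -0.27 to 0.24. Control iWAT 1 and 5 and Ai-α4KO iWAT 2 and 3 were closest to their own number in BAT, and the others were not. This does not settle whether tissues share mice, and the libraries were treated as unpaired. A replicate block, which within BAT ties Control to Ai-α4KO libraries of different mice, removed Cxcl5 and Cxcl14 from the BAT calls. Scaling by library size moved the median of all genes by 0.12 in iWAT, 0.26 in BAT and 0.11 in the interaction. Of 1200 recomputed values for single ligands, 1127 kept their sign and side of the thresholds. Ligands at a few counts per library cannot be ranked at this depth.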

Other observations

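The Ai-α4KO libraries did not carry equal amounts of ligand. In iWAT, library 2 was the highest of the 5 for 15 of the 21 members that rose, and library 1 was the lowest for 12. Skeletal muscle markers summed to 5690 CPM in that library 1 and to 5.69 to 122 CPM in the other 4, and in Control iWAT to 7680 CPM in library 4 and 18 to 193 CPM in the others. Cxcl5 was the 1 member highest in library 1, with 44.1 CPM in library 1 against 2.31 to 6.11 CPM in the other 4. In BAT, library 4 was the lowest for 17 of the 23 members that rose, and libraries 3 and 5 were the highest for 9 and 8. Library 4 also had the most muscle marker signal, 48100 CPM against 14200 to 26700 CPM in the other 4. The part of muscle in these orders was not tested. Ccl24 had its highest BAT value in library 4, at 28.4 CPM, against 5.66 to 6.69 CPM in the other 4 Ai-α4KO libraries. Both Cxcl5 and Ccl24 were picked out after their values were seen.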
